A study of Arabidopsis thaliana with 12 samples.

Results

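The mitochondrial genome of Arabidopsis thaliana carries many open reading frames of unknown function and other short loci beside its ribosomal RNAs and its genes for known proteins. Of the 146 mitochondrial loci in the count table, 105 were followed here, namely every locus with a mitochondrial identifier except 3 ribosomal RNA loci and 38 known protein genes. The identifiers alone set this choice, and no measured value entered it. Among the 105 loci, 84 were 303 to 948 bases long and 21 were 62 to 111 bases long.

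The seedlings were whole, of the wild-type accession Col-0, and grew in shaken mineral water with days at 21 °C. The primed heat shock group spent 2 h at 38 °C and 22 h at 21 °C before 30 min at 43 °C, and was 7 days old. The heat shock group met 30 min at 43 °C at 7 days with no earlier heat. The priming group had 30 min at 38 °C at 6 days, and control seedlings of 6 days had no heat treatment. Each group had 3 libraries of total RNA depleted of ribosomal RNA, and each replicate number stands for 1 harvest date. The times come from the sample labels, whereas the treatment protocol names 2 h at either temperature. Heat shock and control differ in age as well as in heat, so the effects of age and heat cannot be told apart in that comparison. Whether the replicates were grown as separate cultures is not stated, so a p-value reflects only how these libraries vary, which may be technical variation.

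In plants, phage-type RNA polymerases encoded in the nucleus transcribe the mitochondrial genome, and transcription runs well beyond the known genes into the spaces between them. Exonucleases such as polynucleotide phosphorylase remove much of this surplus RNA, so that steady-state levels depend on decay as well as on synthesis. Open reading frames in plant mitochondria often arose by recombination from pieces of other genes, and a large piece of the mitochondrial genome also lies on chromosome 2 of the nucleus in Arabidopsis.

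The count table names loci only by identifier, and the TAIR10.1 annotation of the mitochondrial genome names 74 open reading frames. Of the 105 loci, 37 could be linked to one of these, 21 through the sequence of an annotated nuclear copy and 16 by length alone, so links by length are less certain. Of the loci given below with an open reading frame's name, ATMG00040, ATMG00050, ATMG00630, ATMG00660, ATMG00710, ATMG01000 and ATMG01200 were linked by length alone. Neighbouring genes and shared sequence given for them rest on those links. Annotated products of the nuclear copies named a few. ATMG01110 (ORF251) matches an RNA-dependent RNA polymerase of mitoviruses, which are RNA viruses that replicate in mitochondria. ATMG00280 (ORF110A) holds a piece of the large chain of RuBisCO, with 55.3% of its 31-base words also in the plastid genome. ATMG00370 (ORF199) matches the plastid gene ycf1, with 49.5% of its words in the plastid genome. ATMG01280 (ORF291) is annotated as resembling a membrane part of cytochrome c oxidase subunit II, ATMG01090 (ORF262) as related to ATP synthase subunit 9 and ATMG00590 (ORF313) as a cytochrome b/b6 protein. Most of the other nuclear copies are annotated as unknown proteins.

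Levels of these loci were low. Of the 105, 17 had no count in any library, all of them of 87 bases or less. Whether RNA this short enters the libraries and the counts was not tested, so these loci may have RNA that was not measured. A count of 0 allows up to 3 counts, with counting error alone considered. Before any TMM scaling, that is 0.0199 per 1000000 counts without ribosomal RNA in the deepest library and 0.0419 in the shallowest. CPM is the count of a locus per 1000000 counts without ribosomal RNA, scaled by TMM factors, and RPKM is the same per 1000 bases. Among the 84 loci of 303 bases or more, control RPKM ran between 0.177 and 349.7 with a median of 2.34. The 38 known protein genes had a median control RPKM of 195.5, and only 2 of the 105 loci lay above that median.

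A few loci carried most of the counts: the 6 with the highest control RPKM held 67.8% of all counts on the 105 loci. ATMG01200 stood highest at 349.7 ± 25.2 RPKM in control (SD, n = 3). It is linked by length alone to ORF294, which lies within 1 kb of atp1, the gene for the ATP synthase alpha subunit, on the same strand. ATMG00030 followed at 303.3 ± 84.9 RPKM in control, a difference from ATMG01200 within the spread of its libraries. ATMG00660 (ORF149), within 1 kb of nad5 of respiratory complex I, reached 178.8 ± 13.5 RPKM and ATMG00690 reached 171.3 ± 15.7 RPKM in control, and these neighbours do not differ beyond their spread. ATMG01130 reached 152.2 ± 4.28 and ATMG00670 reached 71.6 ± 4.39 RPKM in control.

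Position went with level. The 11 linked loci that overlap a known gene or lie within 1 kb of one on the same strand had a median control RPKM of 25.2. Of these, ATMG00660, ATMG01000 and ATMG01200 were placed by length alone. The 25 linked loci elsewhere had a median control RPKM of 1.78, and the 47 unlinked loci of 303 bases or more had 1.90. Counts were deposited without strand and no strand setting of the alignment is given, so reads from either strand may enter each value. ATMG01000 (ORF114) overlaps nad3 and ATMG00050 (ORF131) shares all of its 31-base words with ATMG00040 (ORF315), and their values are uncertain for that reason.

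Each heat-treated group gave these loci a larger part of the mitochondrial RNA. Together the 105 loci held 11.29%, 11.22% and 11.28% of the mitochondrial counts without ribosomal RNA in the primed heat shock libraries and 9.95%, 10.08% and 9.69% in the heat shock libraries. The share was 10.83%, 10.32% and 9.70% in the priming libraries and 8.97%, 8.71% and 8.56% in the control libraries. Groups did not overlap in any of the comparisons made, and the heat shock and priming libraries lay in the same range.

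**Figure D1:**
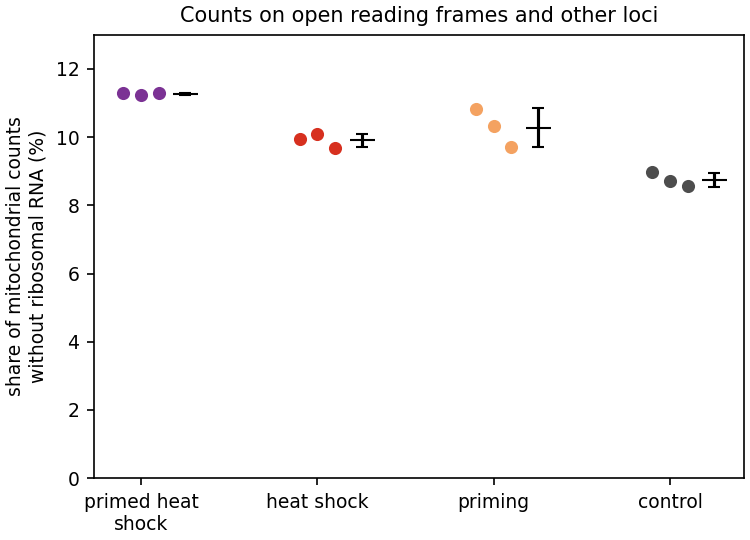
Share of the mitochondrial counts without ribosomal RNA that fell on the 105 open reading frames and other loci, in percent, by library. Points are libraries, and the bar beside them gives the mean and SD of 3 libraries. The primed heat shock libraries sit between 11.22% and 11.29% and the control libraries between 8.56% and 8.97%.

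The difference in this share was 1.54 percentage points between priming and control, 1.16 points between heat shock and control and, for primed heat shock over heat shock, 1.36 points. Each gave p = 0.1 in an exact two-sided permutation test, the smallest p that 3 against 3 libraries can give. Within harvest dates 1 to 3, priming exceeded control by 1.86, 1.61 and 1.15 points, heat shock exceeded control by 0.982, 1.37 and 1.14 points, and primed heat shock exceeded heat shock by 1.34, 1.15 and 1.58 points. With ribosomal RNA kept in the mitochondrial total, heat shock libraries had 7.71%, 7.05% and 6.77% and control libraries 6.26%, 6.27% and 6.80%. The groups then overlapped, and heat shock lay below control at harvest date 3, with a difference of 0.733 points (exact two-sided permutation test, p = 0.2). Without the single locus ATMG00030 the difference between heat shock and control was 0.532 points. Primed heat shock exceeded heat shock by 0.943 points without the most abundant locus and by 2.02 points with ribosomal RNA kept. The paired sign-flip test over the differences within the 3 dates gave p = 0.25 for each comparison, the smallest it can reach (exact permutation test). In whole seedlings, more cells of a type with a larger share and a larger share in each cell cannot be told apart. Where loci are set against all transcripts, as below, more mitochondria or cells of a type and more RNA in each cannot be told apart.

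Priming was compared with control to find the response to 30 min at 38 °C. On the scale of all transcripts, 83 of the 86 loci that passed the low-count filter rose after priming and 0 fell, against 26.7% of all 26161 sequences tested that rose and 27.1% that fell. The median log2 change was 1.39 for the 86 loci, 1.00 for the known protein genes, of which all 37 tested rose, and -0.02 for all sequences. The 19 loci not tested were the 17 with no counts and ATMG00330 and ATMG00780, 2 loci of 88 bases with under 0.1 CPM in each library. With every locus that had a count kept in the fit, the median was 1.31. Without a scaling factor all sequences had a median of -0.88, the 86 loci had 0.53 and 49 of them rose. The known protein genes then had a median of 0.12, so the size of these changes depends on the scaling.

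Relative to the mitochondrial pool itself, that is with all mitochondrial counts without ribosomal RNA as the library size (mitochondrial CPM), 45 of the 86 loci rose after priming and 0 fell. On this scale 39.0% of the 123 mitochondrial loci tested rose and 7.32% fell. Those that rose were 48 loci in all, so that all but 3 of those that rose belonged to the 105. The median log2 change was 0.38 for the 86 loci and -0.03 for the known protein genes, where 3 rose and 9 fell. DESeq2 with its own size factors put 8 of the 86 loci lower and their median at 0.17. The known protein genes then had a median of -0.24. A scaling factor moves all loci of a library alike, so by construction it hardly alters the distance between both medians. That distance was 0.41 and ran between 0.39 and 0.46 on the log2 scale with 1 library left out.

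The largest rise after priming was that of ATMG01140 and ATMG00440, both of 459 bases, the length of ORF152A and ORF152B, which have identical sequences in TAIR10.1. Neither locus was linked to 1 of these. If they are these open reading frames, their reads cannot be told apart, so they are given as a sum. They had 8.44, 7.04 and 7.83 CPM in priming libraries, against 0.786, 0.686 and 0.953 CPM in control libraries. All priming libraries lay far above all controls. Taken singly, ATMG01140 rose 10.005-fold (log2 3.32 ± 0.16 SE, edgeR adjusted p = 2.25e-10) and ATMG00440 rose 9.19-fold (log2 3.20 ± 0.19, edgeR adjusted p = 3.2e-09). Within the mitochondrion ATMG01140 rose by 2.29 ± 0.12 on the log2 scale. ATMG01150, of 321 bases, has a nuclear copy that matches the identical ORF106A and ORF106G. It had 3.36, 2.87 and 2.97 CPM in priming libraries, against 0.325, 0.302 and 0.390 CPM in control libraries (log2 3.17 ± 0.17, edgeR adjusted p = 6.95e-10).

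ATMG00170 and ATMG00620, both of 420 bases, the length of the identical ORF139A and ORF139B, may likewise share their reads. Their summed level was 56.9, 47.3 and 46.7 CPM in priming libraries, against 7.68, 7.06 and 7.06 CPM in control libraries. These were the most abundant of the strongly rising loci, and the groups lay far apart. ATMG00620 alone rose by log2 2.82 ± 0.13 (edgeR adjusted p = 6.36e-11), and by 1.80 ± 0.07 within the mitochondrion. ATMG00630 (ORF110B) had 18.3, 15.2 and 16.7 CPM in priming libraries, against 2.17, 2.12 and 1.97 CPM in control libraries. That is a rise of 8.01-fold (log2 3.00 ± 0.12, edgeR adjusted p = 2.18e-11), and of 1.98 ± 0.07 on the log2 scale within the mitochondrion. ATMG01310 (ORF136B) was rarer, with 1.83, 1.36 and 1.31 CPM in priming libraries, against 0.204, 0.209 and 0.234 CPM in control libraries (log2 2.79 ± 0.26, edgeR adjusted p = 3.78e-07).

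The most abundant loci had small changes. Within the mitochondrion, ATMG01200 rose after priming by 0.17 ± 0.04 on the log2 scale (edgeR adjusted p = 0.00184) and ATMG00660 by 0.26 ± 0.05 (edgeR adjusted p = 0.00067). ATMG00030 gave 0.17 ± 0.21 (edgeR adjusted p = 0.51) and ATMG01130 gave -0.06 ± 0.05 (edgeR adjusted p = 0.378). By mean level over all libraries, 13 of the 24 loci at 10 CPM or more rose within the mitochondrion after priming (median log2 0.17), as did 26 of the 38 loci at 1 to 10 CPM (median 0.64). Of the 24 tested loci under 1 CPM, 6 rose (median 0.45), where few counts widen the error. Among all mitochondrial loci tested, 39.0% rose.

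**Figure D2:**
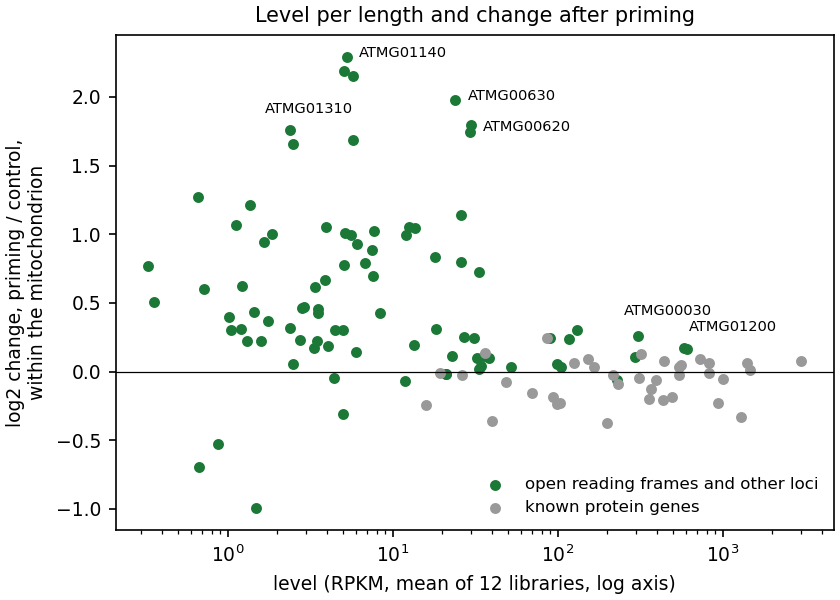
Level per length (RPKM, mean of 12 libraries, log axis) against the log2 change of priming over control within the mitochondrion, 1 point per locus tested, open reading frames and other loci in green and known protein genes in grey. The strong rises, such as ATMG01140 at 2.29, sit at low and middle levels, and ATMG01200, the most abundant, is at 0.17. The same libraries enter both axes.

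Heat shock was compared with control to find the response to 43 °C without earlier heat. On the scale of all transcripts, 78 of the 86 loci rose and 0 fell, against 27.9% of all sequences that rose, with a median log2 change of 1.065 for the 86 loci and 0.58 for the 37 known protein genes, all of which rose. Without a scaling factor 47 loci rose with a median of 0.58, where all sequences had a median of -0.48 and the known protein genes one of 0.08. Within the mitochondrion 48 of the 86 loci rose, against 41.5% of the mitochondrial loci tested that rose, and 4 fell, against 9.76% that fell. The medians there were 0.43 for the 86 loci and -0.07 for the known protein genes, of which 3 rose and 8 fell. With TMM factors over the mitochondrial loci 9 of the 86 fell, and with DESeq2 12 did.

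The pair ATMG00440 and ATMG01140 again led. It had 4.39, 4.56 and 4.38 CPM in heat shock libraries, against 0.786, 0.686 and 0.953 CPM in control libraries. ATMG01140 alone rose by log2 2.53 ± 0.16 (edgeR adjusted p = 1.35e-08), and by 1.88 ± 0.13 within the mitochondrion. ATMG01150 rose by 2.29 ± 0.17 (edgeR adjusted p = 5.7e-08) and ATMG00430, also of 321 bases, by 1.86 ± 0.16 (edgeR adjusted p = 3.64e-07). Both may hold the same reads, since ORF106A and ORF106G of that length are identical, so these may not be separate rises. Their sum was 3.105, 3.25 and 3.45 CPM in heat shock libraries, against 0.756, 0.691 and 0.8975 CPM in control libraries. ATMG01110, the mitovirus polymerase fragment, had 4.46, 4.55 and 5.01 CPM in heat shock libraries, against 1.33, 1.45 and 1.76 CPM in control libraries, with all heat shock libraries above all controls. It rose 3.09-fold (log2 1.63 ± 0.14, edgeR adjusted p = 2.5e-07), and by 0.98 ± 0.11 within the mitochondrion. ATMG00720 had 1.13, 1.34 and 1.15 CPM in heat shock libraries, against 0.506, 0.341 and 0.346 CPM in control libraries (log2 1.61 ± 0.20, edgeR adjusted p = 1.21e-05).

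The 4 loci that fell within the mitochondrion after heat shock fell little. ATMG00200 (ORF107B) fell by 0.22 ± 0.08, ATMG00490 by 0.21 ± 0.09, ATMG01020 by 0.19 ± 0.06 and ATMG01280, the one resembling cytochrome c oxidase subunit II, by 0.11 ± 0.04 on the log2 scale (edgeR adjusted p = 0.0319, 0.0458, 0.0201 and 0.0319 in that order). With the harvest date as a block ATMG00490 had an adjusted p of 0.0645 (edgeR). None of the 4 passed with control replicate 2 left out or with ribosomal RNA kept in the library size. On the scale of all transcripts the same 4 rose, by 0.43, 0.43, 0.45 and 0.53, in the same order.

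**Figure D3:**
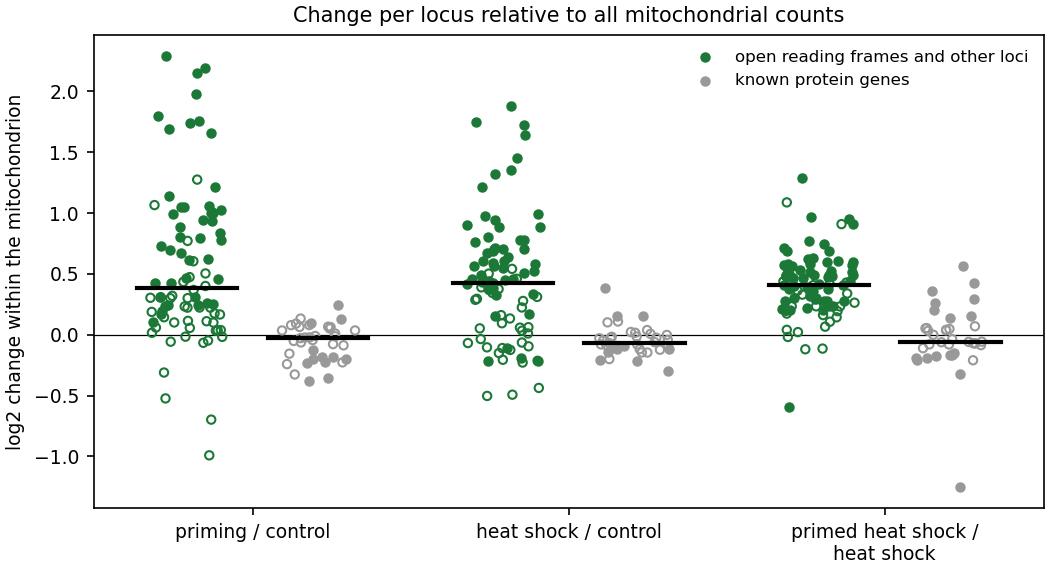
Log2 change within the mitochondrion for each tested locus in the 3 comparisons, open reading frames and other loci in green (86 loci) and known protein genes in grey (37 loci). Filled points have an edgeR adjusted p under 0.05, and black bars are medians, at 0.38, 0.43 and 0.41 for the green and at -0.03, -0.07 and -0.06 for the grey points from left to right.

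Primed heat shock was compared with heat shock to find how levels after 43 °C differed with earlier heat. No group had the earlier heat and recovery without 43 °C. A level left over from the earlier heat and a changed response to 43 °C therefore cannot be told apart. Within the mitochondrion 58 of the 86 loci rose, against 53.7% of the mitochondrial loci tested that rose, and 1 fell, against 8.13% that fell. Their median log2 change was 0.41, and that of the known protein genes was -0.06, with 8 rising and 9 falling. With TMM factors over the mitochondrial loci 37 rose, with a median of 0.24, and with DESeq2 22 rose, with a median of 0.16. With ribosomal RNA kept in the library size the median of the known protein genes was 0.12 and that of the 86 loci 0.59. The distance between both medians, 0.47, ran between 0.45 and 0.50 with 1 library left out. On the scale of all transcripts 20 loci rose and 0 fell, against 12.1% of all sequences that rose (median 0.35, and -0.13 for the known protein genes). That number rests on single libraries: it was 3 without heat shock replicate 1 or primed heat shock replicate 1, 4 without primed heat shock replicate 3, 7 without heat shock replicate 3, 8 without heat shock replicate 2 and 13 with upper-quartile factors.

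ATMG00720 was among the 3 highest rises by the naming rule within the mitochondrion. It had 113.8, 110.5 and 96.8 mitochondrial CPM in primed heat shock libraries, against 67.9, 68.8 and 58.9 in heat shock libraries. No library of one group reached the other, and the log2 change was 0.72 ± 0.13 (edgeR adjusted p = 0.000283). ATMG01290 rose by 0.77 ± 0.19 (edgeR adjusted p = 0.00226) and ATMG01040 by 0.74 ± 0.14 (edgeR adjusted p = 0.0004), both at about 1 CPM. AT2G07599, the annotated nuclear copy of ATMG01040, had 66.9 ± 8.01 CPM in primed heat shock and 40.5 ± 2.49 CPM in heat shock libraries. On the scale of all transcripts AT2G07599 rose by log2 0.72 ± 0.12 (edgeR adjusted p = 0.000442). Whether ATMG01040 holds reads from it was not tested. ATMG00300 had 152.7, 138.6 and 164.7 mitochondrial CPM in primed heat shock libraries, against 113.2, 88.1 and 93.3 in heat shock libraries (log2 0.63 ± 0.12, edgeR adjusted p = 0.0004). After priming alone ATMG00300 stood at -0.05 ± 0.13 relative to control within the mitochondrion.

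Abundant loci also took part. ATMG00690 had 14770, 14960 and 14490 mitochondrial CPM in primed heat shock libraries, against 10260, 10750 and 10400 in heat shock libraries. The groups lay well apart, and the locus rose by 0.49 ± 0.04 on the log2 scale (edgeR adjusted p = 7.39e-08). ATMG01200 rose by 0.24 ± 0.04 (edgeR adjusted p = 0.00016) and ATMG00670 by 0.30 ± 0.04 (edgeR adjusted p = 1.83e-05) within the mitochondrion. ATMG01110 had 361.7, 373.7 and 348.1 mitochondrial CPM in primed heat shock libraries, against 267.2, 234.3 and 256.1 in heat shock libraries (log2 0.52 ± 0.10, edgeR adjusted p = 0.000423).

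On the scale of all transcripts ATMG00720, at 0.64 ± 0.19, ATMG00430, at 0.61 ± 0.15, ATMG00300, at 0.59 ± 0.19, ATMG00890, at 0.55 ± 0.19, ATMG01050 (ORF159), at 0.53 ± 0.16, and ATMG00710 (ORF120), at 0.53 ± 0.18, rose most by the naming rule (log2 of primed heat shock over heat shock). Of these only ATMG00430 passed under each left-out library. ATMG00710 had an edgeR adjusted p of 0.0442, and of 0.0526 with the harvest date as a block.

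The comparison of priming with control shares no library with that of primed heat shock and heat shock. Within the mitochondrion 38 loci rose in both, which is 84.4% of those that rose after priming and 65.5% of those that rose in primed heat shock. Of all 86 loci 67.4% rose in primed heat shock over heat shock and 52.3% rose after priming. Between the sizes of both changes over the 86 loci Spearman's rho was 0.27 and Pearson's r was 0.16, as a description of loci that share the libraries within each comparison. ATMG00170 and ATMG00620 stood for one pattern, with a sum of 1356, 1363 and 1273 mitochondrial CPM in primed heat shock libraries and 1069, 966.6 and 945.6 in heat shock libraries. Their sum was 1983, 2302 and 1965 in priming libraries and 606.8, 614.4 and 611.5 in control libraries. ATMG00690 stood for another, with its values after priming, 11470, 11180 and 10880, only slightly above those in control, 10790, 10470 and 9925.

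**Figure D4:**
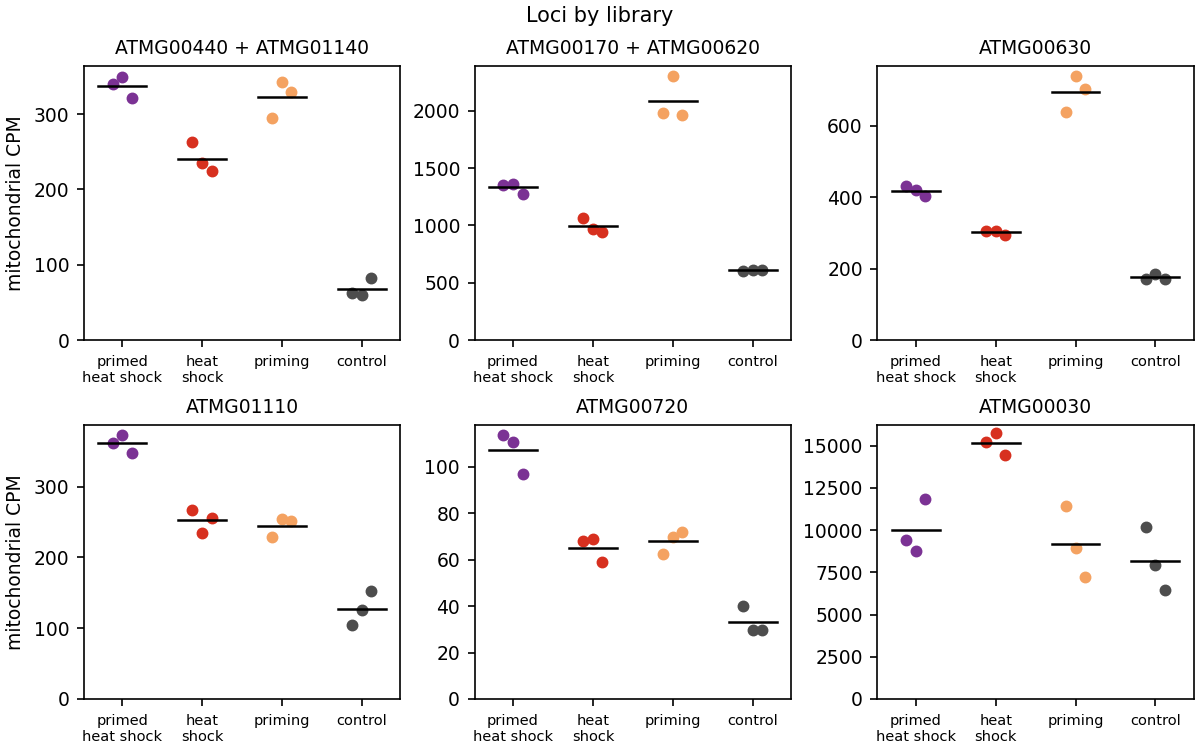
Mitochondrial CPM in each library for 4 single loci and 2 sums of loci of the same length, which is that of 2 open reading frames with identical annotated sequences. Points are libraries and lines are group means. The sum of ATMG00170 and ATMG00620 is highest after priming (1965 to 2302), ATMG01110 and ATMG00720 are highest in primed heat shock, and ATMG00030 is highest in heat shock (14450 to 15760).

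ATMG00030 went its own way. It had 9392, 8772 and 11870 mitochondrial CPM in primed heat shock libraries, against 15200, 15760 and 14450 in heat shock libraries, and it was the only one of the 86 loci that fell within the mitochondrion in that comparison (log2 -0.60 ± 0.21, edgeR adjusted p = 0.0329). The groups did not overlap, but the call was lost when any 1 heat shock library or primed heat shock replicate 1 or 2 was left out, with values between -0.51 and -0.63. In heat shock it stood above control, where it had 10160, 7949 and 6478 (log2 0.89 ± 0.21, edgeR adjusted p = 0.00682). Its counts were a few percent of those left on the ribosomal RNA locus ATMG00020, a target of depletion. They were 4.51%, 4.98% and 4.52% of the ATMG00020 counts in primed heat shock libraries, 5.43%, 3.77% and 3.44% in heat shock libraries, 2.9%, 2.73% and 2.49% in priming libraries and 2.41%, 2.10% and 2.60% in control libraries. The part that leftover ribosomal RNA has in the values of ATMG00030 was not tested. Without ATMG00030 the other loci still held 10.45%, 10.44% and 10.21% of the mitochondrial counts in primed heat shock libraries, 8.56%, 8.64% and 8.37% in heat shock libraries, 9.80%, 9.51% and 9.05% in priming libraries and 8.03%, 7.98% and 7.96% in control libraries.

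Loci beside known genes had smaller median changes after priming and heat shock than the others. Among the 11 linked loci that overlap a known gene or lie within 1 kb on the same strand, the median log2 change within the mitochondrion was 0.10 after priming (5 rose), -0.06 after heat shock (3 rose and 1 fell) and 0.23 in primed heat shock over heat shock (6 rose). Among the 25 linked loci elsewhere the medians were 0.62 (13 rose), 0.46 (17 rose and 1 fell) and 0.41 (13 rose), in the same order. Of all mitochondrial loci tested, 39.0%, 41.5% and 53.7% rose and 7.32%, 9.76% and 8.13% fell in the same order. Both classes of place also differ in level, and their difference was not tested. ATMG01090 (ORF262), within 1 kb of atp9, rose in each comparison within the mitochondrion, by 0.24 ± 0.05 after priming, 0.38 ± 0.05 after heat shock and 0.28 ± 0.05 in primed heat shock over heat shock on the log2 scale (edgeR adjusted p = 0.00046, 5.37e-06 and 0.000192). ATMG00590 (ORF313), the cytochrome b/b6 match near nad4, gave 0.19 ± 0.07, 0.32 ± 0.07 and 0.36 ± 0.07 and passed in each. ATMG01000 (ORF114), which overlaps nad3 of complex I, passed in none, with 0.06 ± 0.10, -0.21 ± 0.10 and -0.11 ± 0.10.

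Of the loci with plastid sequence, ATMG00370 rose by 0.80 ± 0.07 after priming, 0.46 ± 0.07 after heat shock and 0.21 ± 0.07 in primed heat shock over heat shock within the mitochondrion. ATMG00280, the RuBisCO piece, passed in none of the 3 on that scale, with 0.10 ± 0.19, -0.06 ± 0.19 and 0.02 ± 0.19. ATMG00610 (ORF161), annotated as a putative membrane lipoprotein, rose in primed heat shock over heat shock by 0.45 ± 0.07 (edgeR adjusted p = 0.000117) and gave 0.11 ± 0.07 and 0.06 ± 0.07 after priming and after heat shock. The part that reads from the plastid genome have in ATMG00370 and ATMG00280 was not tested.

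A further list held 10 loci, ATMG00240, ATMG00300, ATMG00310, ATMG00710, ATMG00750, ATMG00810, ATMG00820, ATMG00850, ATMG00860 and ATMG01250, whose products the annotation used here does not name. All 10 rose after priming on the scale of all transcripts (median log2 1.58), 8 rose after heat shock (median 1.05) and 3 rose in primed heat shock over heat shock (median 0.42). Of all sequences, 26.7%, 27.9% and 12.1% rose in these comparisons. Within the mitochondrion 3, 5 and 6 of the 10 rose and 0 fell, where 39.0%, 41.5% and 53.7% of the mitochondrial loci tested rose, so these shares lie near those of all mitochondrial loci. ATMG00810 was the most abundant of the list, with 36.7, 25.7 and 30.1 CPM in priming libraries, against 7.66, 6.18 and 6.66 CPM in control libraries (log2 2.17 ± 0.14, edgeR adjusted p = 4.01e-09). ATMG00240 and ATMG00850 stayed under 0.25 CPM in every library.

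Of the 21 loci of 62 to 111 bases, ATMG00360 (111 bases) and ATMG01160 (97 bases) passed the low-count filter. ATMG00360 had 3.998, 2.94 and 3.21 CPM in priming libraries, against 1.29, 1.299 and 1.40 CPM in control libraries. It rose by log2 1.34 ± 0.16 (edgeR adjusted p = 6.68e-06), and by 0.31 ± 0.10 within the mitochondrion. ATMG01160 stayed under 0.3 CPM in every library. It had 8.66, 17.45 and 12.2 mitochondrial CPM in primed heat shock libraries, against 7.04, 8.15 and 4.91 in heat shock libraries, and rose by 0.97 ± 0.40 on the log2 scale (edgeR adjusted p = 0.0461).

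Copies in the nucleus drew reads too. For 28 of the 105 loci, the annotation of a nuclear locus on chromosome 2 names the mitochondrial locus as its best protein match. These nuclear loci are called copies here. Through their sequence, 21 of the 28 mitochondrial loci were linked to a named open reading frame, and for the others shared sequence was not established. These 28 copies had between 0.354 and 58.96 times the control CPM of their mitochondrial partners, with a median of 1.42, and 19 of the 28 had more. All 28 copies rose after priming and 26 rose after heat shock, where 26.7% and 27.9% of all sequences tested rose. The median log2 changes of the copies were 1.27 and 0.99, against 1.27 and 1.01 for their mitochondrial partners. In primed heat shock over heat shock 6 copies rose, where 12.1% of all sequences rose. The copies had a median of 0.28 there, against 0.33 for the partners. AT2G07702, the copy of ATMG01140, had 3.90 ± 0.29 CPM in priming libraries and 0.42 ± 0.06 CPM in control libraries, beside 3.96 CPM and 0.393 CPM for ATMG01140. AT2G07749, the copy of ATMG01110, had 21.2 ± 2.98 CPM in priming libraries and 5.77 ± 0.39 CPM in control libraries. The copies differ in length from their partners, and the authors' alignment decided where a shared read was counted, so the origin of a read cannot be told apart. With all 130 nuclear loci that match the mitochondrial genome left out of the fit, the median log2 change of the 86 loci was 1.395 after priming, 1.069 after heat shock and 0.35 in primed heat shock over heat shock. That fit reassigns no read and keeps the counts of the 86 loci, so it cannot show how many of their reads came from the nucleus.

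Of 8 nuclear genes for mitochondrial transcription, RNA decay and RNA processing, 1 rose and 2 fell after priming, where 26.7% of all sequences rose and 27.1% fell. AT1G68990, which encodes the mitochondrial RNA polymerase RPOTm, had 9.03 ± 1.18 CPM in priming libraries and 13.6 ± 1.94 CPM in control libraries (log2 -0.59 ± 0.11, edgeR adjusted p = 0.000492). TRZ3 (AT1G52160), a transfer RNA maturation nuclease, fell by 0.87 ± 0.14 (edgeR adjusted p = 9.65e-05). AT5G02250, an exoribonuclease of the organelles known as RNR1, rose by 0.31 ± 0.08 (edgeR adjusted p = 0.00303). AT5G14580, the mitochondrial polynucleotide phosphorylase, gave 0.17 ± 0.18 after priming, 0.06 ± 0.18 after heat shock and -0.05 ± 0.18 in primed heat shock over heat shock, with no call in any. After heat shock 3 of the 8 rose and 0 fell, where 27.9% of all sequences rose and 24.5% fell. PRORP1 (AT2G32230), the protein-only RNase P of the organelles, rose most, by 1.11 ± 0.15 (edgeR adjusted p = 1.72e-05). In primed heat shock over heat shock only AT5G02250 passed, at 0.24 ± 0.08 (edgeR adjusted p = 0.0339), where 12.1% of all sequences rose.

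Across the libraries, aligned reads numbered 72075150 to 152118790, and 1290416 to 2363273 of them fell on mitochondrial loci other than ribosomal RNA. The 105 loci received 125224 to 231553 counts per library. Leftover ribosomal RNA made up 0.421% to 0.934% of the aligned reads. Markers of the whole seedling were present in each group: the green tissue gene RBCS1A had 1803 ± 110 CPM in primed heat shock, 1283 ± 43.0 in heat shock, 1590 ± 281 in priming and 1246 ± 158 CPM in control libraries. The root gene PYK10 had 661.3 ± 11.9, 457.1 ± 40.2, 258 ± 5.57 and 453.4 ± 70.7 CPM in the same order, and fell after priming by 0.81 ± 0.12 on the log2 scale (edgeR adjusted p = 3.23e-05). In primed heat shock over heat shock PYK10 rose by 0.53 ± 0.12 and RBCS1A by 0.49 ± 0.14 (edgeR adjusted p = 0.00352 and 0.0166), and RBCS1A rose after priming by 0.35 ± 0.14 (edgeR adjusted p = 0.0407). Of the other markers, the light-harvesting gene CAB1 had 2016 ± 197, 2785 ± 383, 2246 ± 497 and 1761 ± 237 CPM and the seed storage gene CRA1 had 3.07 ± 2.16, 0.801 ± 0.332, 4.02 ± 2.99 and 6.86 ± 5.17 CPM in that order. After heat shock CAB1 rose by 0.66 ± 0.17 and CRA1 fell by 3.11 ± 0.96 on the log2 scale (edgeR adjusted p = 0.00377 and 0.0239). The seed storage gene SESA1 averaged under 0.06 CPM in each group. The part of tissue make-up in the changes of the 105 loci was not tested.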

How the data were processed

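The submitters' processing notes name genome build TAIR10 and the tools Bowtie2, SAMtools and DESeq2; their versions, their roles and a strand setting are not given in the sources used here. Each deposited file gives the raw count of reads aligned to every reference sequence, where both mates of a pair count singly. The second column holds sequence lengths. Per the labels' protocols the libraries were strand-specific, but the deposited counts have no strand.

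Of 87128 sequences, 15 ribosomal RNA sequences and unplaced reads stayed out of library sizes. Counts were fitted with edgeR 4.0.16 in R 4.3.3 (TMM factors, filterByExpr with a minimum count of 10, robust quasi-likelihood fit of 12 libraries on 4 group means), with Benjamini-Hochberg adjustment at 0.05 over 26161 sequences. A second fit, within the mitochondrion, used the 143 mitochondrial loci other than ribosomal RNA, their summed count as library size and adjustment over 123 loci. The biological coefficient of variation was 0.143 in the first and 0.0663 in the second fit. Standard errors were obtained from the log2 change and the square root of F. Both fits were also run on simulated counts with known changes.

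TAIR10.1 differs from the files' build on the mitochondrial genome, so it was used for names, neighbours and sequence identity only (31-base words, at least 50% shared), and no coordinates are given.

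Named loci are, for each comparison and scale, up to 6 rising and 6 falling with an adjusted p under 0.05, a mean of 1 CPM or more in the higher group and no overlap of libraries, the 6 highest in control RPKM and the list of 10. Other loci are named for their annotation, length, place or level, and ATMG00810 as the most abundant of its list, chosen after their values were seen. The members and lists were chosen with earlier results of these data known.

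Samples with the same replicate number share a harvest date, per the labels, and are thereby paired. Their deviations from the group means had correlations of -0.278 to 0.375 over all sequences and of -0.27 to 0.173 over mitochondrial loci. All pairs of replicates differed by more than counting noise (chi-square per degree of freedom 8.46 to 151.7). Alternatives were other scaling, DESeq2 1.42.0, the block, no filter, ribosomal RNA kept, nuclear matches left out and each library left out. Shares were tested with scipy 1.17.1.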

Additional observations from a re-analysis of the deposited data

How the results depend on the processing

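Neither a mean difference in share nor a locus named for its call changed sign under any alternative run. Those loci were picked by their calls in these same data. A number of loci called has no sign, and such numbers did shift. The median of the known protein genes within the mitochondrion for primed heat shock over heat shock was 0.12 with ribosomal RNA kept, against -0.06. Without a scaling factor, 49 loci rose after priming (median log2 0.53), 47 rose after heat shock (median 0.58), and 1 fell in primed heat shock over heat shock (median 0.46). Upper-quartile factors gave a median of 1.16 for heat shock and 13 rising loci for primed heat shock over heat shock. Within the mitochondrion, TMM factors gave 2 falling loci for priming, 9 for heat shock and 3 for primed heat shock over heat shock, where 37 rose (median 0.24). DESeq2 gave 8 falling for priming (median 0.17), 12 for heat shock (median 0.27) and 22 rising and 4 falling for primed heat shock over heat shock (median 0.16). With ribosomal RNA kept, 0 fell after heat shock and the median for primed heat shock over heat shock was 0.59. With library sizes from the known protein genes alone, an alternative chosen after seeing the data, 2 fell after heat shock. With each library left out in turn, the number rising in primed heat shock over heat shock ran between 3 and 21 (median 0.28 to 0.45), and the median for heat shock between 0.98 and 1.078. Within the mitochondrion the number falling ran between 0 and 1 for priming, 0 and 6 for heat shock, and 0 and 1 for primed heat shock over heat shock. The cause of these shifts was not tested. The replicate block moved no count of loci by over 1.5 times, and the calls lost under it were those of ATMG00710 (log2 0.52) and ATMG00490 (log2 -0.21), given above. With 1 library left out, the difference in share ran between 1.27 and 1.83 points for priming, 1.069 and 1.27 for heat shock and 1.25 and 1.44 for primed heat shock over heat shock. Over the other alternatives the mean difference ran between 1.17 and 1.76, 0.532 and 1.49, and 0.943 and 2.02 points in the same order. The alternative without ATMG00030 was also chosen after seeing the data. Low counts limit the 24 tested loci under 1 CPM.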
